A study of Mus musculus with 14 samples.

Results

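The 31 genes described here make, carry and sense bile acids. They were the rows of the deposited count table whose symbol stood in a list of 31 names, and all 31 were found among its 45706 genes. The list held 2 genes of the classic synthesis route, 3 of the alternative route, 7 of the later ring and side-chain steps, 6 uptake carriers, 4 canalicular and 4 basolateral exporters, and 5 receptors and regulators. The study sequenced RNA of mouse liver, and 14 libraries are used here, all from male C57BL6/J mice that were 8 weeks old at the start. Chow libraries (4, replicates 1 to 4) came from mice fed standard chow for 16 weeks. MASH libraries (3, replicates 2, 3 and 4) came from mice fed for as long a diet that brings on MASH (metabolic dysfunction-associated steatohepatitis), in which fat builds up in the liver and is joined by inflammation and scarring. C18:1 libraries (4, replicates 1 to 4) came from mice that, after 16 weeks of that diet, were kept on it for 6 further weeks with the monounsaturated fatty acid C18:1 (OA in the titles), and C18:1-leucine libraries (3, replicates 1, 2 and 4) from mice given instead that fatty acid coupled to the amino acid leucine (OAL). A vehicle arm is described, but the titles do not say whether the MASH libraries came from it, and no source used here gives doses. Nor is it said whether the chow and MASH libraries come from mice kept for these 6 weeks, so where a compound is compared with MASH or chow, a longer time on the diet and an older age cannot be told apart from the treatment. Nothing in the labels states that each library came from its own mouse, so p-values measure only the spread between libraries, which may in part be technical.

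Bile acids are made from cholesterol in hepatocytes. In the classic route Cyp7a1 adds the first hydroxyl group and Cyp8b1 steers the product towards cholic acid, while in the alternative route Cyp27a1 and Cyp7b1 act on the side chain and on oxysterols. Conjugated bile acids are pumped into the canaliculus by Abcb11, return from the gut in portal blood, and are taken up again by Slc10a1 and the Slco carriers. The nuclear receptor FXR (Nr1h4) senses them and induces SHP (Nr0b2), and FGF15 from the ileum signals through Fgfr4 and its partner Klb to lower Cyp7a1.

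The libraries held 33821874 to 51107248 counts. Of the 31 genes, 30 passed the filter on low counts and were tested with 15674 genes in all. Slc51a, a subunit of the basolateral organic solute transporter, was not tested, with 1 count in chow replicate 1 and 0 in the other libraries. Levels are given in CPM, counts relative to the scaled library size. The treatment tag disagreed with the title for C18:1 replicate 1, tagged with the diet alone, and for C18:1-leucine replicate 1, tagged with C18:1; groups followed the titles. The defining hepatocyte markers (8 genes such as Alb and Ttr) summed to 40610 to 102400 CPM, so the tissue matched its label. Bile duct markers (10 genes such as Spp1, Krt19 and Epcam) summed to 45.7 to 59.3 CPM in chow and to more elsewhere. The sum was 401.6 for MASH replicate 4, 464 and 423 for C18:1 replicates 1 and 3, and 229 for C18:1-leucine replicate 4. Spp1 alone held most of these sums, at means of 160 CPM in MASH and 243 in C18:1, against 2.44 and 4.97 for Krt19. Pancreatic acinar markers (7 genes) summed to 177 CPM in chow replicate 2 and 848 in C18:1-leucine replicate 2, against 3.73 to 7.68 in the other libraries. In bulk RNA, fewer cells of a type and less RNA per cell cannot be told apart.

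Compared per length of exon (CPM per kilobase, RPKM), the list was led in chow by Scp2, the sterol carrier and peroxisomal thiolase, at 1362 ± 167 RPKM (SD, n = 4). Next stood the hydroxysteroid dehydrogenase Akr1c6 at 347 ± 28.2, Cyp27a1 at 269.6, Cyp8b1 at 263 and Slc10a1 at 257 RPKM. At the low end were Slc10a2, the ileal bile acid importer, at 1.57 RPKM, Abcc4 at 0.835 and Slc51b at 0.152. The spread between libraries also differed by gene. The median coefficient of variation was 13.6% in chow, 10.6% in MASH, 13% in C18:1 and 14.4% in C18:1-leucine, and Cyp7a1 stood at 84.8% in chow and 99.1% in MASH. Of the 30 tested genes, 19 passed adjusted p under 0.05 (edgeR's quasi-likelihood test, Benjamini and Hochberg over all tested genes) in at least 1 of the 6 comparisons of groups and 11 in none. The 11 were Cyp7a1, Hsd3b7, Acox2, Hsd17b4, Slc10a2, Abcb11, Abcb4, Atp8b1, Abcc3, Nr0b2 and Fgfr4.

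In MASH against chow, 12 of the 30 tested genes fell and 1 rose, and 10 had groups that did not overlap. Of all genes tested, 15.1% fell, 20.4% rose and 40.3% had groups without overlap. An unadjusted p under 0.05 was found for 16 of the 30 and for 46.3% of all genes. The share of bile acid genes that fell was thus above the background and the share that rose below it. This describes a list chosen with earlier results of these data known. The falls covered all 3 genes of the alternative route, Cyp8b1 of the classic route, 1 of 7 later enzymes, 3 of 6 uptake carriers, 3 of 5 receptors and regulators, and the basolateral exporter Abcc4, while none of the 4 canalicular exporters passed the test. The median log2 fold change of the 30 genes was −0.28, against 0.01 over all tested genes.

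**Figure D1:**
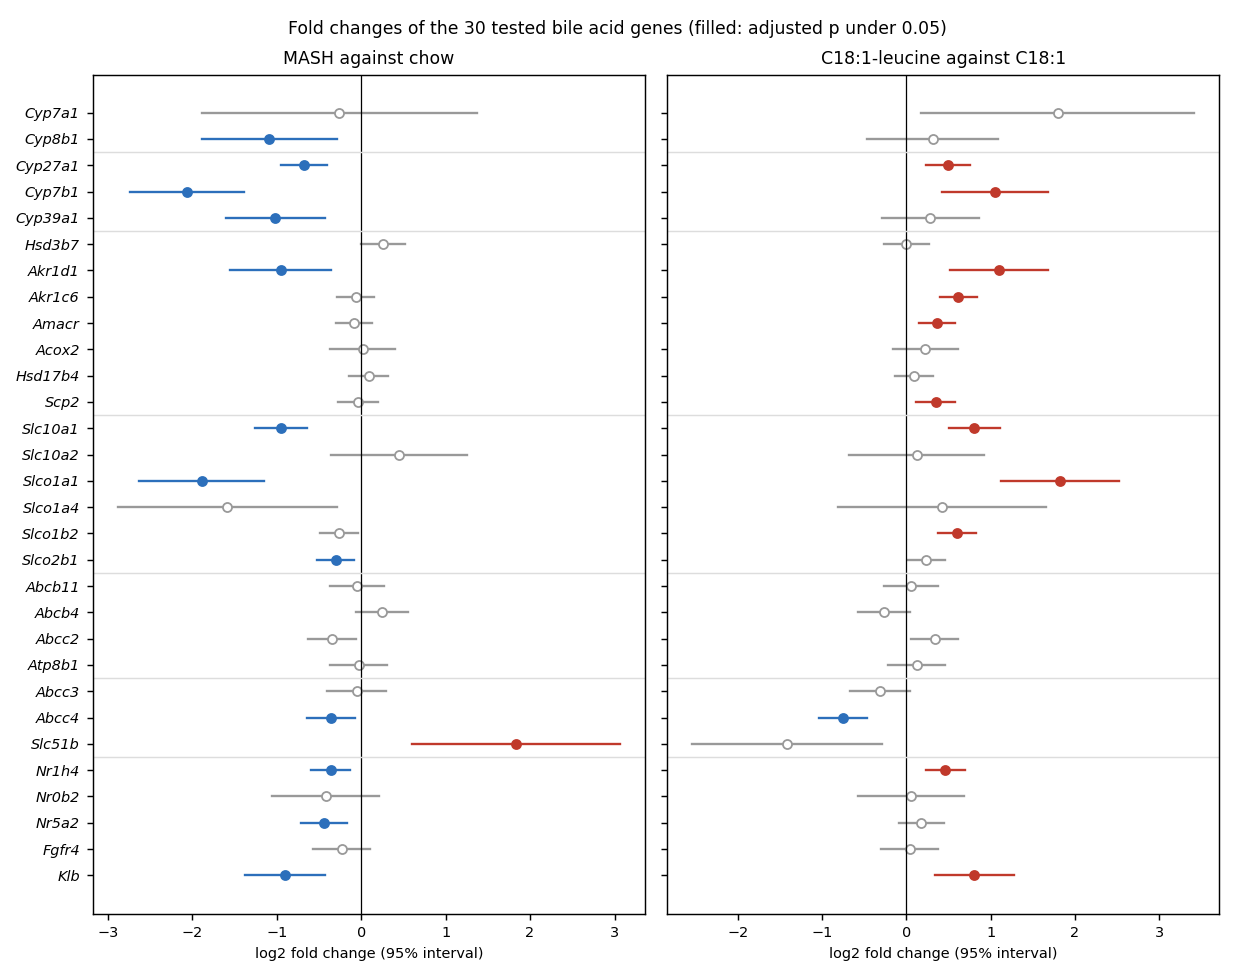
Log2 fold change of each of the 30 tested genes with its 95% interval from edgeR, for MASH against chow (left) and C18:1-leucine against C18:1 (right); genes are ordered by role, and filled points passed adjusted p under 0.05 (blue lower, red higher). On the left 12 genes are blue and 1 is red, and on the right 11 are red and 1 is blue.

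Cyp7a1, the rate-limiting enzyme of the classic route, stood at 13.7, 61.6, 67.1 and 172 CPM in chow, 38.7, 18.3 and 139.8 in MASH, 53.04, 103, 47.98 and 31 in C18:1, and 167, 196 and 246 in C18:1-leucine. The chow libraries alone spanned more than the MASH and C18:1 groups, and 3 groups overlapped, while all C18:1-leucine libraries lay above all libraries but chow replicate 4. The log2 fold change of MASH against chow was −0.26 ± 0.75 (SE), adjusted p = 0.813 in edgeR, with a 95% interval of −1.89 to 1.38. With this spread, changes in either direction within that interval could not be told from none. Cyp8b1, the 12-alpha-hydroxylase, stood at 469.6, 272, 683 and 624 CPM in chow, 311.5, 162 and 249.7 in MASH, 217, 264, 198 and 154 in C18:1, and 146, 226.5 and 403 in C18:1-leucine. Chow replicate 2 lay among the MASH libraries and the other 3 chow libraries above all of them. Cyp8b1 fell 2.13-fold in MASH (−1.09 ± 0.37 (SE), adjusted p = 0.037, edgeR). That call ended without any one of chow replicates 1, 3 and 4 and MASH replicates 3 and 4, with adjusted p = 0.051, 0.0916, 0.073, 0.127 and 0.0971.

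The upstream bases of Cyp8b1 are shown because it was the gene of the classic route that passed the test, and those of Nr0b2 because it encodes a repressor of bile acid synthesis genes and did not pass. The sequences are the 250 bases before the RefSeq start (GRCm38.p6), 5′ to 3′ on the strand of the gene, at chr9:121916306-121916555 (minus strand) for Cyp8b1 and chr4:133553126-133553375 (plus strand) for Nr0b2. Capitals mark a match to a searched motif.
Cyp8b1: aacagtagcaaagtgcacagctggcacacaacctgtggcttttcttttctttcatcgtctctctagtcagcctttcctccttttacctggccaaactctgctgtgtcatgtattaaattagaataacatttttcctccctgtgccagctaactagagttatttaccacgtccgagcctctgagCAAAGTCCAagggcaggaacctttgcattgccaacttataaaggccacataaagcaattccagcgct
Nr0b2: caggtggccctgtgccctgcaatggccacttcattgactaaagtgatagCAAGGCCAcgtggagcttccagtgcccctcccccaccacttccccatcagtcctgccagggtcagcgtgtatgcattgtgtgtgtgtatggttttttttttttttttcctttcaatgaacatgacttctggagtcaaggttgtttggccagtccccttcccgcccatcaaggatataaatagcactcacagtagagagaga
The windows searched ran from 250 bases before to 50 after the start, on both strands, and 24 of the 31 genes had at least 1 of the 30 windows matched. CAAAGTCCA, a form of the site bound by HNF4A, lay at −67 to −59 from the start of Cyp8b1 and in no other window of the list, and 0.475% of all 32851 promoter windows held it. CAAGGCCA, a form of the half-site bound by LRH-1 (the product of Nr5a2), lay at −201 to −194 of Nr0b2 and at −136 to −129 of Slc51a, and 2.4% of all windows held it. CAAGGTCA, the other form of that half-site, was in none of the 30 windows and in 1.56% of all windows, and the inverted repeat bound by FXR (GGTCA, any 1 base, TGACC) in none and in 0.0396%. Such matches describe letters only.

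The alternative route was lower in MASH at each of its 3 genes. Cyp27a1, the mitochondrial sterol 27-hydroxylase, stood at 535, 513, 645 and 650.4 CPM in chow, 346, 379 and 370 in MASH, 294, 371, 322 and 312 in C18:1, and 376, 508 and 485 in C18:1-leucine. All MASH and all C18:1 libraries lay under all chow libraries, and the C18:1-leucine libraries lay under chow and above every C18:1 library. It fell 1.61-fold in MASH (−0.68 ± 0.13 (SE), adjusted p = 0.00133, edgeR). Cyp7b1, the oxysterol 7-alpha-hydroxylase, stood at 386, 217, 243 and 199.9 CPM in chow, 63.1, 69.3 and 55.9 in MASH, 60.7, 82.3, 35.85 and 84.4 in C18:1, and 156, 156 and 96.02 in C18:1-leucine. The chow libraries were the highest, the C18:1-leucine libraries came next, and the MASH and C18:1 libraries were lowest and overlapped. Its fall in MASH was 4.17-fold, the largest of the list (−2.06 ± 0.31 (SE), adjusted p = 0.00039, edgeR). Cyp39a1, the 24-hydroxycholesterol 7-alpha-hydroxylase, stood at 34.6, 35.4, 38.3 and 35.5 CPM in chow, 19.2, 20.4 and 13.7 in MASH, 8.02, 12.7, 15.6 and 24.15 in C18:1, and 19.5, 19.5 and 16.2 in C18:1-leucine. Its chow libraries lay close together and above all others, while the 3 diet groups overlapped. Cyp39a1 fell 2.02-fold in MASH (−1.02 ± 0.27 (SE), adjusted p = 0.0114, edgeR), a call that ended without MASH replicate 4 (adjusted p = 0.059).

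Of the later enzymes, Akr1d1 alone passed in MASH. Akr1d1, the steroid 5-beta-reductase that gives bile acids their bent ring, stood at 77.3, 145, 159.9 and 196 CPM in chow, 71.4, 79.7 and 72.6 in MASH, 44.4, 69.95, 73.6 and 55.6 in C18:1, and 165.5, 133 and 92.98 in C18:1-leucine. Chow replicate 1 lay within the MASH libraries and the other chow libraries well above. It fell 1.94-fold (−0.96 ± 0.28 (SE), adjusted p = 0.0181, edgeR), and the call ended without MASH replicate 2 or 4 (adjusted p = 0.0549 and 0.064). Akr1c6 stood at 647, 683, 712 and 782 CPM in chow, 568, 694 and 760.5 in MASH, 585, 593, 599 and 561 in C18:1, and 859, 942 and 888 in C18:1-leucine. Amacr, the racemase that prepares the side chain, stood at 169.5, 155, 169 and 167.5 CPM in chow, 169, 138 and 159 in MASH, 124, 164, 137 and 132 in C18:1, and 187, 167 and 184 in C18:1-leucine. Scp2 stood at 5587, 4283, 4591 and 4484 CPM in chow, 4990, 4352 and 4533 in MASH, 4031, 4457, 4136 and 4271 in C18:1, and 5149, 5595 and 5347 in C18:1-leucine. For these 3 genes MASH overlapped chow, and the C18:1-leucine libraries were the highest by group mean. Hsd3b7, Acox2 and Hsd17b4, which act on the ring and in peroxisomal side-chain shortening, had group means of 594 to 711.7, 245 to 285 and 640.3 to 705 CPM and passed in no comparison.

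Among the 6 uptake carriers, 3 fell in MASH. Slc10a1, the sodium-dependent bile acid importer NTCP, stood at 488.5, 576, 592 and 602 CPM in chow, 322, 268 and 288 in MASH, 213, 331, 308 and 269 in C18:1, and 549.7, 479 and 438 in C18:1-leucine. No MASH or C18:1 library reached the lowest C18:1-leucine library or the lowest chow library. It fell 1.93-fold in MASH (−0.95 ± 0.14 (SE), adjusted p = 0.00034, edgeR). Slco1a1, a sodium-independent organic anion carrier, stood at 374, 353, 376 and 310 CPM in chow, 102, 70.6 and 114 in MASH, 143, 67.4, 41.1 and 107 in C18:1, and 294, 394 and 261 in C18:1-leucine. The chow and C18:1-leucine libraries overlapped each other and lay above every MASH and C18:1 library. Its fall in MASH was 3.7-fold (−1.89 ± 0.34 (SE), adjusted p = 0.0013, edgeR).

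Slco1a4, a paralog of Slco1a1, stood at 28.02, 91.95, 173 and 107 CPM in chow, 30.7, 32.03 and 36.95 in MASH, 9.325, 28.3, 67 and 32.96 in C18:1, and 39.6, 50.96 and 47.45 in C18:1-leucine. Chow replicate 1 was below all MASH libraries and the other chow libraries above them. The MASH difference of −1.59 ± 0.60 (SE), adjusted p = 0.0553 did not pass in edgeR, although it did without chow replicate 1 (adjusted p = 0.0155) and without C18:1 replicate 1 or 3 (0.0277 and 0.0368). Slco1b2, a hepatic carrier of unconjugated bile acids, stood at 1170, 1290, 1337 and 1198 CPM in chow, 1020, 1083 and 1013 in MASH, 809, 891, 950.4 and 879.7 in C18:1, and 1125, 1453 and 1444 in C18:1-leucine. Every C18:1 library was below every MASH library, and every MASH library below every chow library. The difference of MASH from chow, −0.27 ± 0.11 (SE), adjusted p = 0.0652, missed the threshold in edgeR and passed it without C18:1-leucine replicate 1 (adjusted p = 0.0347). Slco2b1, a carrier of sulfated steroids, stood at 138, 157, 143 and 152.5 CPM in chow, 117, 130.4 and 112 in MASH, 108, 129.6, 134 and 133 in C18:1, and 168, 149 and 128 in C18:1-leucine. It fell 1.23-fold in MASH (−0.30 ± 0.10 (SE), adjusted p = 0.0366, edgeR). That call ended without any one of chow replicates 2, 3 and 4 and MASH replicates 2 and 4 (adjusted p = 0.0811, 0.0534, 0.0604, 0.0937 and 0.137). Slc10a2, with group means of 6.51 to 8.84 CPM, passed in no comparison. Slco1b2, Slco1a4 and Slco1a1 lie near each other on chromosome 6 (141629518 to 141946962 on GRCm38), and fractional counts of Slco1a1 and Slco1a4 in 13 libraries each leave the split of reads between these paralogs uncertain. Fractional counts were also found for Scp2 and Abcb4 in 14 libraries each, Hsd3b7 in 11 and Akr1c6 in 5. The assignment of some of their reads is likewise uncertain.

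**Figure D2:**
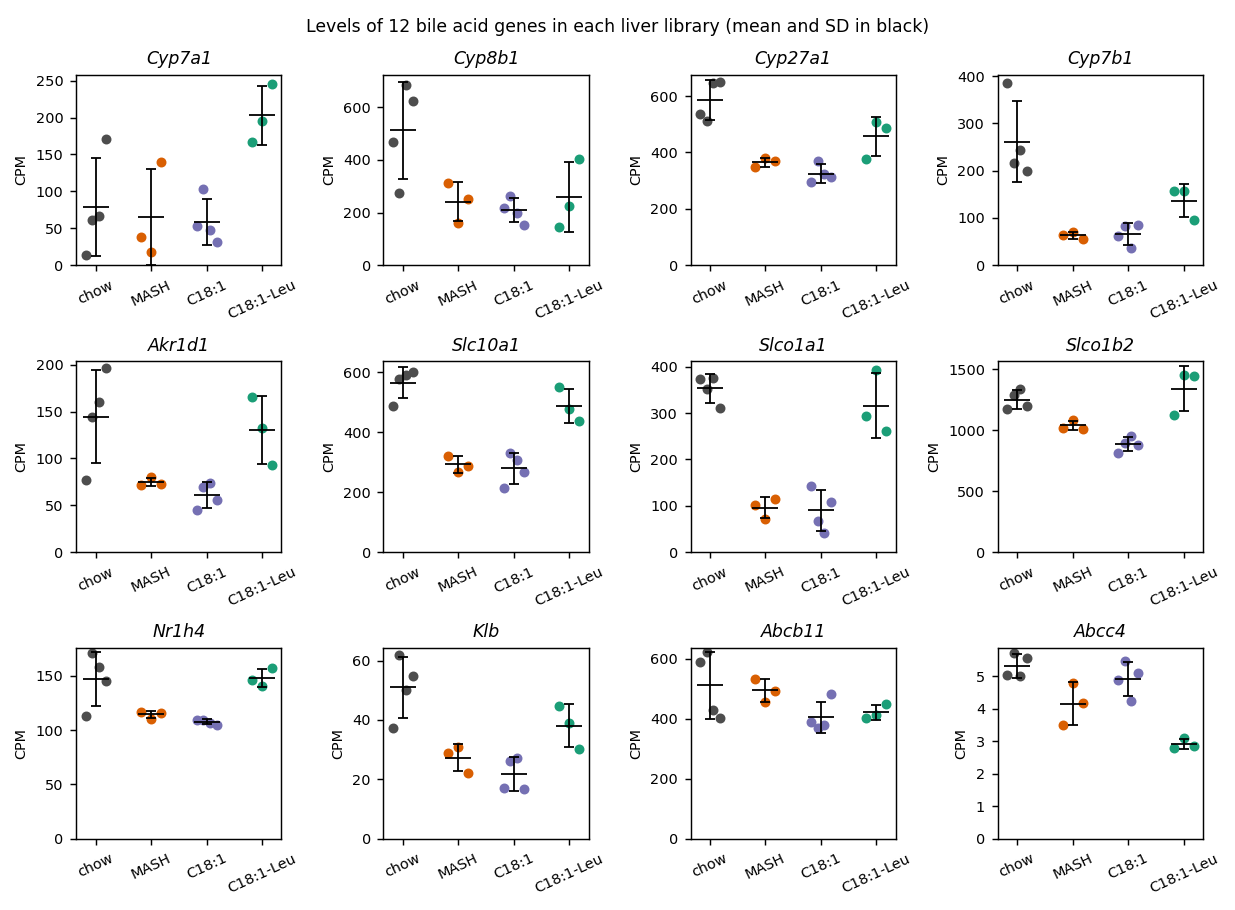
Level in CPM of 12 genes in each of the 14 libraries (points), with the group mean and SD in black; each panel has its own axis starting at 0. For Slco1a1 the 3 C18:1-leucine libraries lie at 261 to 394 CPM, overlapping chow and above all MASH and C18:1 libraries, whereas Abcc4 is lowest in C18:1-leucine.

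Canalicular exporters did not pass in MASH. Abcb11, the bile salt export pump, stood at 590.3, 622, 430.2 and 404 CPM in chow, 534.5, 455 and 494 in MASH, 390, 369, 381 and 482 in C18:1, and 403, 412 and 449 in C18:1-leucine. The MASH libraries lay within the chow range. The difference was −0.05 ± 0.15 (SE), adjusted p = 0.822 in edgeR, with a 95% interval of −0.37 to 0.27. Abcc2, which exports conjugated bilirubin and divalent bile acids, stood at 675.5, 837, 943 and 902 CPM in chow, 634, 742 and 610.5 in MASH, 534, 651, 579.5 and 581.5 in C18:1, and 636, 837 and 748 in C18:1-leucine. The MASH libraries overlapped chow replicate 1 and the C18:1 libraries lay below all chow libraries. Its MASH difference of −0.34 ± 0.13 (SE), adjusted p = 0.0577 missed the threshold in edgeR and passed it without chow replicate 1, MASH replicate 3 or C18:1-leucine replicate 1 (adjusted p = 0.0168, 0.0428 and 0.0494). Abcb4, the phospholipid floppase, and Atp8b1, the aminophospholipid flippase, had group means of 448 to 578 and 40.95 to 45.2 CPM and passed in no comparison.

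At the basolateral side, Abcc4, an efflux pump for bile acid conjugates, stood at 5.03, 5.72, 5.01 and 5.56 CPM in chow, 3.499, 4.805 and 4.196 in MASH, 4.89, 5.48, 4.24 and 5.11 in C18:1, and 2.79, 3.11 and 2.86 in C18:1-leucine. All MASH libraries lay under all chow libraries, the C18:1 libraries overlapped both, and the C18:1-leucine libraries lay under every other library. It fell 1.28-fold in MASH (−0.36 ± 0.13 (SE), adjusted p = 0.0489, edgeR). That call ended when any one of chow replicates 1 to 4, MASH replicates 2 and 4, C18:1 replicates 1 and 4, and C18:1-leucine replicates 1 and 2 was left out, with adjusted p between 0.0549 and 0.192. Slc51b was the 1 gene that rose, at 0.144, 0.2075, 0.05035 and 0.0294 CPM in chow, 0.207, 0.503 and 0.4503 in MASH, 0.5615, 0.199, 0.629 and 0.739 in C18:1, and 0.236, 0.2075 and 0.1565 in C18:1-leucine. These levels rest on 1 to 7 counts a library in chow and 10 to 22 in MASH, and MASH replicate 2 lay at the level of chow replicate 2. No chow library reached the filter's minimum count of 10. Slc51b thus entered the test only through other groups, where it was higher, so its rise is given as a description. The log2 fold change was 1.83 ± 0.57 (SE), adjusted p = 0.0242 in edgeR, and the call ended without chow replicate 3 or 4 or MASH replicate 3 or 4 (adjusted p = 0.0688, 0.0624, 0.0759 and 0.0756). Abcc3, another basolateral efflux pump, had group means of 292 to 412.5 CPM and passed in no comparison.

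Among the receptors, Nr1h4 (FXR) stood at 113, 171, 158 and 145 CPM in chow, 117, 110.2 and 116 in MASH, 109, 109, 106 and 105 in C18:1, and 146, 140.5 and 157 in C18:1-leucine. Chow replicate 1 lay within the MASH libraries, and the C18:1-leucine libraries lay above every MASH and every C18:1 library. Nr1h4 fell 1.28-fold in MASH (−0.36 ± 0.11 (SE), adjusted p = 0.0204, edgeR), and the call ended without chow replicate 2 or 3 or MASH replicate 3 or 4 (adjusted p = 0.0557, 0.0547, 0.0621 and 0.0529). Nr0b2 (SHP), the repressor that FXR induces, stood at 70.2, 38.03, 35.3 and 50.5 CPM in chow, 28.4, 51.3 and 28.9 in MASH, 33.3, 44.95, 26.1 and 31.8 in C18:1, and 33.1, 26.1 and 46.4 in C18:1-leucine. All 4 groups overlapped. Its MASH difference was −0.42 ± 0.29 (SE), adjusted p = 0.275 in edgeR, with a 95% interval of −1.05 to 0.21.

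Nr5a2 (LRH-1), an activator of Cyp7a1 and Cyp8b1, stood at 67.2, 75.1, 57.6 and 59.6 CPM in chow, 46.9, 51.4 and 45.1 in MASH, 41.03, 53.4, 54.4 and 50.5 in C18:1, and 63.05, 58.8 and 46.9 in C18:1-leucine. It fell 1.36-fold in MASH (−0.44 ± 0.13 (SE), adjusted p = 0.0154, edgeR), with no overlap, and the call ended without MASH replicate 4 (adjusted p = 0.0641). Klb, the co-receptor through which FGF15 is bound, stood at 37.5, 61.8, 50.1 and 54.7 CPM in chow, 28.8, 30.96 and 22.15 in MASH, 16.99, 26.1, 27.3 and 16.6 in C18:1, and 44.8, 39.1 and 30.3 in C18:1-leucine. All MASH and C18:1 libraries were below all chow libraries. Klb fell 1.87-fold in MASH (−0.90 ± 0.22 (SE), adjusted p = 0.00719, edgeR), while its partner receptor Fgfr4, with group means of 33.6 to 41.8 CPM, passed in no comparison.

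Leaving out each of the 14 libraries in turn kept the MASH calls of Cyp27a1, Cyp7b1, Slc10a1, Slco1a1 and Klb in every fit. The count of falls dropped from 12 to 5 without MASH replicate 4, the MASH library with the most bile duct transcripts. It dropped to 7 without the 4 libraries in which those markers summed to over 200 CPM. These include MASH replicate 4, so this drop is not separate from the first. Calls over all genes, in either direction, also dropped without MASH replicate 4, from 5563 to 3811. The part of bile duct transcripts in these drops was not tested. Hsd3b7 passed as higher without chow replicate 1 (adjusted p = 0.0294, against 0.109 with all libraries in edgeR). The hepatocyte markers themselves were lower: 7 of 8 fell in MASH, with summed levels of 78340 to 102400 CPM in chow and 51180 to 57320 in MASH. Macrophage markers summed to 246 to 401 CPM in chow and 653.5 to 824 in MASH, and stellate cell markers to 217 to 314.5 and 485 to 848. The part of these shifts in the falls of the bile acid genes was not tested.

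With C18:1 alone, no bile acid gene differed from MASH past the threshold in edgeR, and neither did any of the 15674 genes (0% called), where 1 of the 30 genes and 6.18% of all genes were at an unadjusted p under 0.05. DESeq2 called none of the 30 genes and 3 genes in all. Groups did not overlap for 2 of the 30 genes, Slco1b2 and Nr1h4, beside 5.46% of all genes. The median log2 fold change of the list was −0.13. Slco1b2 differed by −0.24 ± 0.11 (SE), adjusted p = 0.77, and Nr1h4 by −0.09 ± 0.11 (SE), adjusted p = 0.864, both in edgeR. Slc10a1 and Slco1a1 stood at −0.06 ± 0.14 (SE), adjusted p = 0.939, and −0.09 ± 0.32 (SE), adjusted p = 0.966, with 95% intervals of −0.37 to 0.24 and −0.79 to 0.61 in edgeR. The C18:1 group against chow gave 15 falls and 1 rise among the 30 genes, beside 24.9% of all genes lower and 27.8% higher (52.6% in either direction). That comparison and MASH against chow share the 4 chow libraries. In it 8 of 8 hepatocyte markers fell, and 7 of 10 bile duct, 7 of 8 macrophage and 7 of 8 stellate cell markers rose; the part of these shifts was not tested.

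The 15 genes lower in C18:1 than in chow were Cyp8b1, all 3 genes of the alternative route, the enzymes Akr1d1, Akr1c6 and Amacr, the carriers Slc10a1, Slco1a1, Slco1a4 and Slco1b2, the exporter Abcc2, and Nr1h4, Nr5a2 and Klb. The widest were Cyp7b1 (−1.99 ± 0.28 (SE), adjusted p = 9.92e-05, edgeR) and Slco1a1 (−1.98 ± 0.31 (SE), adjusted p = 0.00022), which were at −2.06 and −1.89 in MASH against chow. Slc51b was the gene that rose (2.31 ± 0.53 (SE), adjusted p = 0.0028, edgeR). Having entered the test only through groups other than chow, its rise is a description here too. Slco1b2 fell (−0.50 ± 0.10 (SE), adjusted p = 0.000885, edgeR) and so did Abcc2 (−0.52 ± 0.12 (SE), adjusted p = 0.00311, edgeR), both with groups that did not overlap. Calls that ended without single libraries were those of Akr1c6 (−0.27 ± 0.10, adjusted p = 0.0275, edgeR), Amacr (−0.25 ± 0.09, adjusted p = 0.0358) and Slco1a4 (−1.54 ± 0.54, adjusted p = 0.0298). The Akr1c6 call ended without chow replicate 3 or 4 or C18:1 replicate 1 or 4 (adjusted p = 0.0553, 0.0683, 0.054 and 0.0685). The Amacr call ended without chow replicate 1 or 3 or C18:1 replicate 1, 3 or 4 (0.0698, 0.0763, 0.112, 0.0741 and 0.0896), and the Slco1a4 call without chow replicate 3 or C18:1 replicate 1, 2 or 4 (0.1, 0.0605, 0.0671 and 0.0644). Conversely, Abcb11 passed as lower without chow replicate 3 or 4, C18:1 replicate 4 or C18:1-leucine replicate 4 (0.0331, 0.0128, 0.0263 and 0.0455), and Slco2b1 and Fgfr4 did so without C18:1-leucine replicate 1 (0.045 and 0.0489) or 4 (0.0245 and 0.0342).

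With C18:1-leucine, none of the 30 genes passed against MASH in edgeR, where 0.0702% of all genes did. At an unadjusted p under 0.05 stood 12 of the 30, beside 18.1% of all genes. Groups did not overlap for 13 of the 30, beside 22.3% of all genes, and 20 of the 30 fold changes were positive (median log2 fold change 0.18). The largest positive ones were Slco1a1 (1.73 ± 0.35 (SE), adjusted p = 0.071, edgeR), Cyp7a1 (1.63 ± 0.82 (SE), adjusted p = 0.317) and Cyp7b1 (1.12 ± 0.32 (SE), adjusted p = 0.111). Slco1a1 passed in 1 leave-one-out fit, without C18:1 replicate 3 (adjusted p = 0.0272). Next came Akr1d1 (0.81 ± 0.29, adjusted p = 0.181, edgeR) and Slc10a1 (0.74 ± 0.15, adjusted p = 0.0702). The largest negative one was that of the low Slc51b (−0.94 ± 0.56, adjusted p = 0.407). DESeq2 called 6 of the 30 genes higher, namely Cyp7b1 (adjusted p = 0.00994), Akr1c6 (0.0064), Slc10a1 (0.00038), Slco1a1 (0.000114), Slco1b2 (0.0122) and Nr1h4 (0.0388), and Abcc4 lower (0.0261). Limma voom with sample weights called the first 5 of these. Over all genes DESeq2 called 961 and limma voom 601 in this comparison, against 11 of 15674 in edgeR.

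**Figure D3:**
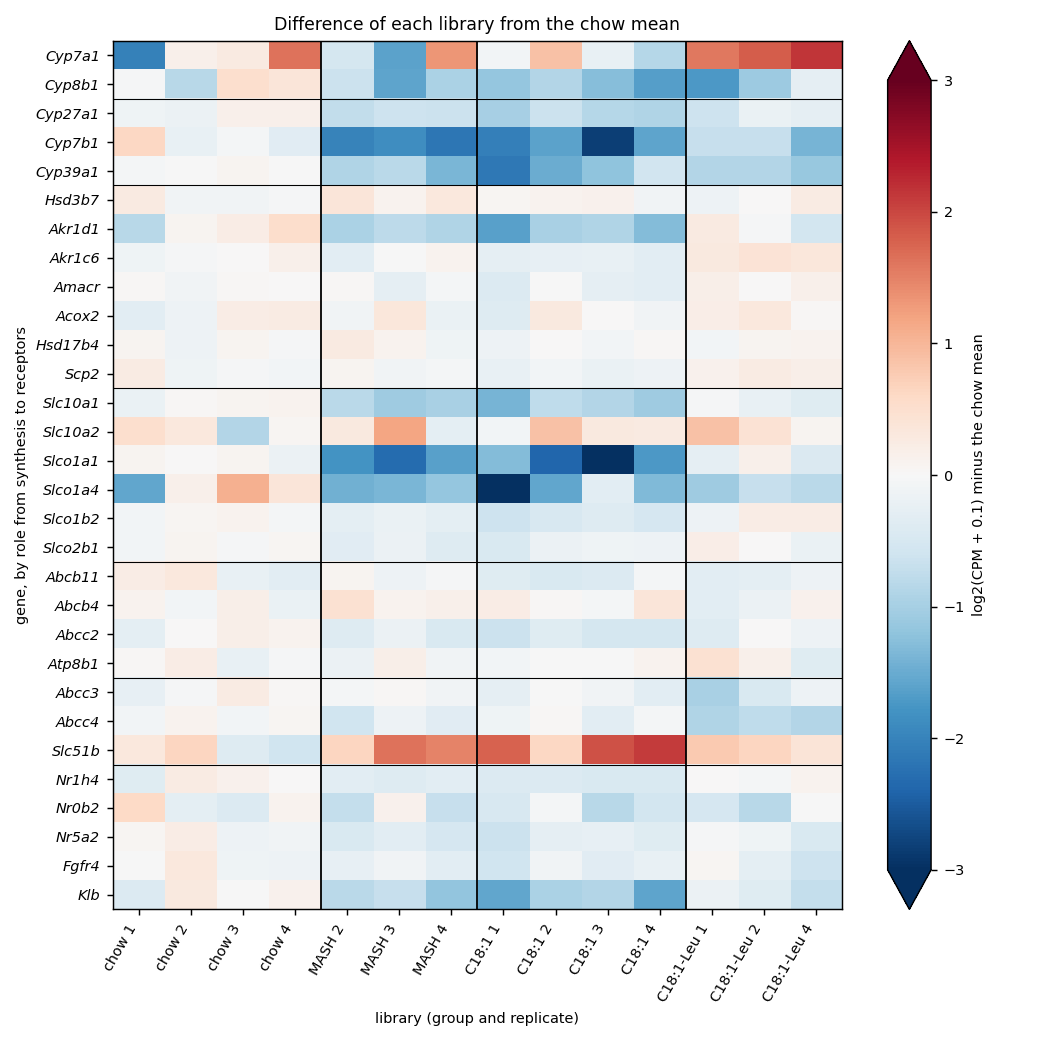
Difference of each library (columns, by group and replicate) from the chow mean for the 30 tested genes (rows, by role), on the scale of log2(CPM + 0.1), with red above and blue below chow; colours end at a difference of 3 in either direction. Blue runs through the MASH and C18:1 columns for Cyp7b1, Slc10a1, Slco1a1 and Klb and is paler in the 3 C18:1-leucine columns, except that C18:1-leucine replicate 4 is slightly bluer for Klb than MASH replicate 3, and the row of Slc51b rests on at most 35 counts a library.

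Against C18:1, the compound without leucine, C18:1-leucine gave 11 genes that rose and 1 that fell among the 30 tested. Of all genes 7.34% rose and 8.89% fell. Groups did not overlap for 13 of the 30 genes, beside 27.7% of all genes, and an unadjusted p under 0.05 was found for 16 of the 30, beside 32% of all genes. The median log2 fold change of the list was 0.30. The rises were 2 of 3 genes of the alternative route, 4 of 7 later enzymes, 3 of 6 uptake carriers and 2 of 5 receptors and regulators. Neither classic enzyme and none of the 4 canalicular exporters passed. The treatment times were the same and the doses are not given, so the values compare these groups as dosed.

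Slco1a1 rose 3.53-fold (1.82 ± 0.32 (SE), adjusted p = 0.00525, edgeR), the most of the genes called. Slc10a1 rose 1.75-fold (0.80 ± 0.14 (SE), adjusted p = 0.00458, edgeR) and Slco1b2 1.52-fold (0.60 ± 0.10 (SE), adjusted p = 0.00453, edgeR). In each of these 3 carriers all C18:1-leucine libraries lay above all C18:1 libraries. The other carriers gave smaller estimates, with Slco2b1 at 0.24 ± 0.10 (SE), adjusted p = 0.132, and Slco1a4 at 0.42 ± 0.57 (SE), adjusted p = 0.647, and neither passed in edgeR. Slco2b1 passed without C18:1-leucine replicate 4 (adjusted p = 0.0387).

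Of the synthesis enzymes, Akr1d1 rose 2.14-fold (1.10 ± 0.27 (SE), adjusted p = 0.0182, edgeR), Cyp7b1 2.07-fold (1.05 ± 0.29 (SE), adjusted p = 0.0293) and Akr1c6 1.53-fold (0.62 ± 0.10 (SE), adjusted p = 0.00389). Cyp27a1 rose 1.41-fold (0.49 ± 0.12 (SE), adjusted p = 0.019, edgeR), Amacr 1.29-fold (0.36 ± 0.10 (SE), adjusted p = 0.0253) and Scp2 1.27-fold (0.35 ± 0.11 (SE), adjusted p = 0.047). The groups did not overlap for any of these 6 enzymes. Cyp7a1 had the C18:1-leucine libraries at 167 to 246 CPM and the C18:1 libraries at 31 to 103. Its log2 fold change of 1.79 ± 0.75 (SE), adjusted p = 0.122, was close to that of Slco1a1 but carried a wide error and did not pass in edgeR (95% interval 0.17 to 3.42); it did pass with the 2 groups fitted alone (adjusted p = 0.0279) and in limma voom (0.0336). Cyp8b1 and Cyp39a1 were 0.31 ± 0.36 (SE), adjusted p = 0.58, and 0.28 ± 0.27 (SE), adjusted p = 0.492 in edgeR, with 95% intervals of −0.46 to 1.09 and −0.29 to 0.86.

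Nr1h4 rose 1.37-fold (0.46 ± 0.11 (SE), adjusted p = 0.0142, edgeR) and Klb 1.75-fold (0.81 ± 0.22 (SE), adjusted p = 0.0247, edgeR). Both had groups that did not overlap. Nr0b2, Fgfr4 and Nr5a2 did not pass, with 95% intervals of the log2 fold change of −0.57 to 0.68, −0.30 to 0.38 and −0.09 to 0.44. Abcb11 lay at 0.06 ± 0.15 (SE), adjusted p = 0.827, in edgeR, with a 95% interval of −0.27 to 0.38. The 1 fall was that of Abcc4, 1.69-fold (−0.75 ± 0.13 (SE), adjusted p = 0.00484, edgeR), with every C18:1-leucine library under every C18:1 library. Slc51b, at 7 to 11 counts in the C18:1-leucine libraries, did not pass in edgeR (adjusted p = 0.0826) but did so without C18:1 replicate 2 (adjusted p = 0.0285).

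Akr1c6, Slc10a1, Slco1a1, Slco1b2, Nr1h4 and Abcc4 kept these calls with each of the 14 libraries left out in turn. Over all genes, calls in either direction went from 2544 to 756 without C18:1-leucine replicate 2, the lowest of these fits. The highest was 3043, without C18:1 replicate 2. Whether the drops in the list given next exceed those over all genes was not tested. The count of rises in the list went from 11 to 5 without C18:1 replicate 1 and to 6 without C18:1 replicate 4. It was 6 without C18:1-leucine replicate 1 and 5 without C18:1-leucine replicate 2. Akr1d1 and Klb ended without any of these 4 libraries (adjusted p = 0.0542 to 0.0807 and 0.0706 to 0.0997), Cyp27a1 without the first, second or last of them (0.0572, 0.0552 and 0.0971) and Cyp7b1 without the first, the third or the last (0.078, 0.0992 and 0.112). Amacr ended without C18:1 replicate 1, 3 or 4 or C18:1-leucine replicate 1 or 2 (0.0508 to 0.089), and Scp2 without any library of MASH, any of C18:1-leucine, C18:1 replicate 1, 3 or 4, or chow replicate 3 (0.0532 to 0.17).

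The libraries whose tag and title disagree weigh on this comparison. With both left out, 5 genes rose, namely Cyp27a1, Akr1c6, Slc10a1, Slco1a1 and Slco1b2, Abcc4 fell, and 487 genes were called in all. With groups taken from the tags, which left the C18:1-leucine group 2 libraries, no gene of the list and no gene of the table passed in edgeR. C18:1-leucine replicate 1 stood at 294 CPM for Slco1a1 and 549.7 for Slc10a1, above all C18:1 libraries, and at 2.79 CPM for Abcc4, below all of them. These genes were called with that library counted as C18:1-leucine, so their values cannot decide between its tag and its title. For Cyp39a1 it stood at 19.5 CPM, within the C18:1 libraries (8.02 to 24.15). Whether the tag or the title is right was not tested. Without the 4 libraries richest in bile duct transcripts 3 genes rose (624 genes called in all). Without the 2 that held pancreatic transcripts 5 did (593 in all), against 2544 in all with every library.

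Levels of hepatocyte markers moved with these results. They summed to 40610 to 50730 CPM in C18:1 and 57530 to 81190 in C18:1-leucine, and 5 of 8 rose. Of the 8 macrophage markers 5 fell, with sums of 593 to 1075 CPM in C18:1 and 251 to 558 in C18:1-leucine, and 1 of the 10 bile duct markers fell. All 5 erythroid markers rose, with sums of 264 to 751 CPM in C18:1 and 624 to 1260 in C18:1-leucine. Cyp7b1 and Slco1a1 are known to be higher in male than in female liver. Of 9 other male-biased liver genes, 4 fell in MASH against chow, beside 15.1% of all genes. In C18:1-leucine against C18:1, 2 of the 9 rose, beside 7.34% of all genes, namely Cyp2d9 (0.74 ± 0.15 (SE), adjusted p = 0.00735, edgeR) and Hsd3b5 (3.46 ± 0.82 (SE), adjusted p = 0.0165, edgeR). The part of these shifts in the bile acid results was not tested.

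Against chow, C18:1-leucine left 3 of the 30 genes called: Cyp39a1 and Abcc4 lower and Akr1c6 higher, beside 4.34% of all genes lower and 10.2% higher. Groups did not overlap for 5 of the 30 genes, beside 29.2% of all genes. Abcc4 fell 1.82-fold (−0.87 ± 0.13 (SE), adjusted p = 0.00161, edgeR), a call kept with each library left out. Cyp39a1 fell 1.95-fold (−0.97 ± 0.27 (SE), adjusted p = 0.0324, edgeR), which ended without chow replicate 1, 2 or 3 or any C18:1-leucine library (adjusted p = 0.0544 to 0.114). Akr1c6 rose 1.27-fold (0.34 ± 0.10 (SE), adjusted p = 0.0399, edgeR), which ended without chow replicate 1, 2 or 3, C18:1 replicate 3 or 4, or any C18:1-leucine library (0.0501 to 0.118).

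For other genes the interval of this comparison tells how far from chow the level could lie. Slco1a1 differed by −0.16 ± 0.32 (SE), adjusted p = 0.766, and Slc10a1 by −0.21 ± 0.14 (SE), adjusted p = 0.33, in edgeR, with 95% intervals of −0.86 to 0.54 and −0.51 to 0.10. Cyp7b1 remained at −0.94 ± 0.30 (SE), adjusted p = 0.051 in edgeR, with groups that did not overlap, and passed as lower without chow replicate 4 (adjusted p = 0.0446) or C18:1 replicate 3 (0.0245). Cyp27a1, at −0.36 ± 0.13 (SE), adjusted p = 0.0689, also had groups without overlap. Nr1h4 differed by 0.01 ± 0.11 (SE), adjusted p = 0.963, with a 95% interval of −0.22 to 0.24. Cyp8b1, at −0.99 ± 0.37 (SE), adjusted p = 0.0897, passed as lower without chow replicate 2 (0.0466) or C18:1-leucine replicate 4 (0.0447), and Abcc3, at −0.50 ± 0.17 (SE), adjusted p = 0.0574, without chow replicate 1 (0.0477) or C18:1-leucine replicate 4 (0.0243).

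The comparisons of MASH with chow and of C18:1-leucine with C18:1 share no library, but both came from the same fit of all 14 libraries. That fit shared its scaling and its estimate of the spread, so the calls are not fully independent. Of the 12 genes that fell in the first and the 11 that rose in the second, 7 were in both: Cyp27a1, Cyp7b1, Akr1d1, Slc10a1, Slco1a1, Nr1h4 and Klb. They made up 58.3% of the falls and 63.6% of the rises. Over all tested genes, 857 were in both, which is 36.3% of 2363 falls and 74.5% of 1151 rises. Signs were opposite for 24 of the 30 genes (80%) and for 79.3% of all genes, which are close to each other. Abcc4 fell in both, and it was the 1 gene of all 15674 to do so, although its MASH call was the one that ended in 10 of the 14 leave-one-out fits.

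**Figure D4:**
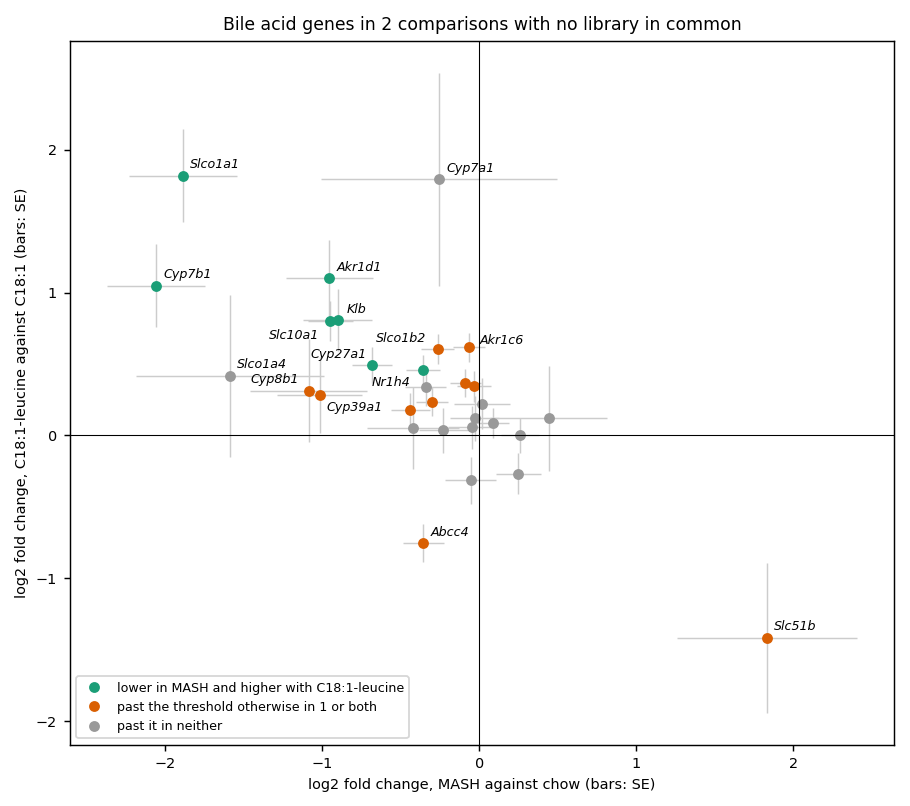
Log2 fold change of the 30 tested genes in MASH against chow (x axis) and in C18:1-leucine against C18:1 (y axis), 2 comparisons that share no library; bars are standard errors. The 7 green genes at the upper left fell in the first and rose in the second, and Abcc4 lies at the lower left.

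Beyond the 31 genes, 7 lists held 47 further genes of bile acid handling, of which 44 were tested. In MASH against chow, 14 of the 44 fell and 7 rose (median log2 fold change −0.22), beside 15.1% and 20.4% of all genes. Conjugation had 3 of 5 genes lower: Baat, which joins bile acids to taurine (−0.63 ± 0.11, adjusted p = 0.000709, edgeR), the bile acyl-CoA ligase Slc27a5 (−0.66 ± 0.16, adjusted p = 0.00641) and Slc27a2 (−0.39 ± 0.14, adjusted p = 0.0476). Detoxification had 3 of 5 lower: the bile acid sulfotransferase Sult2a8 (−1.51 ± 0.20, adjusted p = 0.000112, edgeR), Cyp3a11 (−0.92 ± 0.23, adjusted p = 0.00805) and Ugt1a1 (−0.50 ± 0.15, adjusted p = 0.0223). Among 8 transcription factors 4 fell, with Hnf4a at −0.72 ± 0.17, adjusted p = 0.00534, and Mafg, a repressor of bile acid synthesis genes, at −0.53 ± 0.14, adjusted p = 0.0105, in edgeR. The other factors that fell were Cebpa (−0.35 ± 0.12, adjusted p = 0.0314, edgeR) and Ppargc1a (−0.67 ± 0.24, adjusted p = 0.0463).

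The remaining lists were mixed in MASH. Of 7 other sensors, S1pr2 (1.37 ± 0.22, adjusted p = 0.000542, edgeR) and the vitamin D receptor Vdr (1.65 ± 0.58, adjusted p = 0.0413) rose, the latter at under 1 CPM (means of 0.0718 in chow and 0.2302 in MASH), and the xenobiotic receptor Nr1i3 (−0.92 ± 0.21, adjusted p = 0.00523) fell. Among 7 other canalicular transporters and partners, Abcb1a (1.29 ± 0.24, adjusted p = 0.00157, edgeR) and Abcg2 (0.48 ± 0.11, adjusted p = 0.00428) rose, and Tmem30a, the partner subunit of Atp8b1, fell (−0.41 ± 0.09, adjusted p = 0.00293). Of the genes of canalicular assembly, Myo5b rose (0.30 ± 0.10, adjusted p = 0.027, edgeR), and Usp53 and Rdx fell (−0.61 ± 0.12, adjusted p = 0.00167, and −0.29 ± 0.07, adjusted p = 0.00674). Of 4 hydroxylases and oxysterol enzymes, Ch25h rose (1.72 ± 0.55, adjusted p = 0.0274, edgeR) at means of 0.107 CPM in chow and 0.357 in MASH, and Cyp2c70, which makes muricholic acids in mice, did not pass (−0.69 ± 0.31, adjusted p = 0.0983).

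In C18:1-leucine against C18:1, 9 of the 44 further genes rose and 3 fell (median log2 fold change 0.17), beside 7.34% and 8.89% of all genes. The same 3 conjugation genes rose, with Baat at 0.39 ± 0.11, adjusted p = 0.0249, Slc27a2 at 0.48 ± 0.14, adjusted p = 0.0365, and Slc27a5 at 0.50 ± 0.16, adjusted p = 0.0422, in edgeR. Sult2a8 (1.53 ± 0.19, adjusted p = 0.00224, edgeR), Ugt1a1 (0.52 ± 0.15, adjusted p = 0.0336), Cyp2c70 (0.98 ± 0.30, adjusted p = 0.0428), Nr1i3 (1.34 ± 0.21, adjusted p = 0.00329), Tmem30a (0.40 ± 0.09, adjusted p = 0.00987) and Rdx (0.27 ± 0.07, adjusted p = 0.0234) were the other rises. Vdr (−2.53 ± 0.57, adjusted p = 0.0118, edgeR) and S1pr2 (−0.93 ± 0.22, adjusted p = 0.0158) were among the falls, Vdr at means of 0.0701 CPM in C18:1-leucine and 0.4165 in C18:1. None of the 8 transcription factors passed, and Hnf4a stood at 0.24 ± 0.17, adjusted p = 0.347 in edgeR. Against MASH neither compound gave a call among the 44 genes in edgeR, with 5 for C18:1 and 10 for C18:1-leucine at an unadjusted p under 0.05, beside 6.18% and 18.1% of all genes. Set against chow, C18:1 gave 17 of the 44 lower and 8 higher, beside 24.9% and 27.8% of all genes. C18:1-leucine against chow gave 5 lower, namely Baat, Cyp3a11, Cyp2b10, Hnf4a (−0.77 ± 0.17, adjusted p = 0.0107, edgeR) and Usp53, and 1 higher, Abcb1a (1.06 ± 0.25, adjusted p = 0.0146), beside 4.34% and 10.2% of all genes.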

How the data were processed

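The authors deposited a table of expected counts per gene and library. The submitters' processing notes name HTSeq, DESeq2 1.42.1 and the build GRCm38 without their roles; per the labels' protocols RNeasy and NEBNext Ultra II kits were used. Between 5.09% and 5.76% of a library's values were fractional and were rounded. No source used here says whether counting used strand, so genes that overlap others in the annotation are uncertain (Abcb11, Abcb4, Abcc4, Akr1d1, Atp8b1, Cyp39a1, Cyp7b1, Hsd17b4, Hsd3b7, Scp2, Slc51a, Slc51b, Slco1a1 and Slco2b1). The 6 comparison tables of the authors were not used, since no key to their letters is given.

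Groups followed the titles. Genes were filtered with filterByExpr (minimum count 10, minimum total 15, smallest group 3). All 14 libraries were fitted together in edgeR 4.0.16 under R 4.3.3, with TMM factors and the robust quasi-likelihood test (two-sided); the fit was tested on simulated counts. Benjamini-Hochberg adjustment ran over all genes tested in a comparison, and the threshold was 0.05. Replicate libraries differed beyond counting noise (chi-square of 27.4 to 173.9 per gene), so none was counted as a repeat. Per-library values are given for genes past the threshold in at least 1 of the 6 comparisons and for Cyp7a1, Cyp8b1, Abcb11 and Nr0b2, and of each pathway list up to 4 genes with the smallest p are named; 1 gene of these lists is counted but not reported here by name. The members and lists were chosen with earlier results of these data known. Coordinates are from GENCODE M21, and promoter sequences from RefSeq (GRCm38.p6). Alternatives were DESeq2 1.42.0, limma 3.58.1 (voom with sample weights), relative log expression factors, no filter, a fit of the compared groups alone, a replicate block, grouping by the tags, leaving out both libraries whose labels disagree, and leaving out each library. Leaving out the libraries rich in bile duct (over 200 CPM) or pancreatic (over 100 CPM) transcripts was added after seeing the data.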

Additional observations from a re-analysis of the deposited data

Results flagged for a closer look

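In groups of 4 libraries, 59 sets of values were screened for a lowest or highest library that stood apart from the other 3, and 3 were marked; chance marks about 1 in 20 such groups. Hsd3b7, the 3-beta-hydroxysteroid dehydrogenase of bile acid synthesis, was highest in chow replicate 1 at 710.9 CPM, against 545 to 572.3 CPM in the other chow libraries, a gap of 0.835 of the range. Amacr was lowest in chow replicate 2 at 154.6 CPM, against 167.5 to 169.5 CPM, a gap of 0.868 of the range. Slco2b1 was lowest in C18:1 replicate 1 at 107.9 CPM, against 129.6 to 133.9 CPM, a gap of 0.833 of the range. Chow replicate 2 is one of the libraries with pancreatic transcripts, and C18:1 replicate 1 has the highest sum of bile duct markers; the part of either in these values was not tested.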

How the results depend on the processing

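No fold change of a listed gene that passed the test changed sign under any alternative. Of the values of single genes, 4060 stayed on their side of the threshold, 183 lost it and 73 gained it. Counts of listed genes that changed by more than 1.5 times were as follows, and the cause was not tested. With DESeq2, C18:1-leucine against MASH had 6 higher and 1 lower (961 genes called in all), C18:1 against MASH 3 genes in all, and C18:1-leucine against chow 6 lower. With limma voom, MASH against chow had 2 higher, C18:1-leucine against MASH 5 higher (601 in all), against C18:1 2 lower (4459 in all), and against chow 2 higher and 5 lower. With no filter, C18:1-leucine had 30 genes in all against MASH, and 0 higher and 1 lower listed genes against chow. With only the compared groups fitted, MASH, C18:1 and C18:1-leucine had 0 higher against chow, and C18:1-leucine had 1 higher against MASH (51 in all) and 7 higher against C18:1 (1621 in all). With groups from the tags, C18:1-leucine had 0 genes in all against MASH, 0 higher and 0 lower against C18:1 (0 in all), and 0 higher and 0 lower against chow (653 in all), and C18:1 had 9 lower against chow; the C18:1-leucine group then held 2 libraries. With both disagreeing libraries left out, C18:1-leucine had 0 genes in all against MASH, 5 higher against C18:1 (487 in all) and 0 higher against chow. Without the 4 libraries richest in bile duct transcripts, MASH had 0 higher and 7 lower against chow, and C18:1-leucine had 1 higher against MASH (7 in all), 3 higher against C18:1 (624 in all) and 0 higher against chow (1068 in all). Without the 2 libraries with pancreatic transcripts, C18:1-leucine had 0 genes in all against MASH, 5 higher against C18:1 (593 in all), and 0 higher and 1 lower against chow (1049 in all).

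Leaving out 1 library at a time gave, for MASH against chow, 0 to 2 higher, 5 to 13 lower and 3811 to 5730 genes in all. For C18:1 against chow it gave 1 higher throughout, 12 to 18 lower and 6953 to 8522 in all, and for C18:1 against MASH 0 throughout. For C18:1-leucine it gave 0 to 1 higher, 0 lower and 0 to 61 in all against MASH, 5 to 11 higher, 1 to 2 lower and 756 to 3043 in all against C18:1, and 0 to 1 higher, 1 to 3 lower and 976 to 2427 in all against chow. With the replicate number as a block, MASH against chow had 12 lower, C18:1-leucine against C18:1 9 higher (2306 in all), C18:1-leucine against MASH 35 genes in all, and C18:1-leucine against chow 0 higher and 1 lower. The labels do not say whether the numbers pair the libraries. Deviations of same-numbered libraries correlated from −0.3 to 0.404 in 18 pairs, over 0.1 in 7. Of the 14 libraries 2 correlated best with their own number. This cannot exclude a pairing, since libraries of unlike number also correlated, with 0.568 for MASH replicate 4 and C18:1 replicate 1. Genes under 1 CPM, among them Slc51a, Slc51b, Vdr and Ch25h, rest on few counts, and the part of depth was not tested.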
